A study of Mus musculus with 16 samples.

Results

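The 9 genes described here carry iron through the absorptive epithelium of the gut or store it there. They are Slc11a2, Slc40a1, Cybrd1, Heph, Fth1, Ftl1, Tfrc, Hmox1 and Epas1, chosen by gene symbol among the 48440 genes listed for each segment. They were measured by RNA-Seq in GFP+ cells sorted from Lgr5-EGFP mice, in which the stem cell gene Lgr5 drives a green fluorescent protein. The study treats the sorted cells as intestinal stem cells (ISCs) and progenitors. Markers of mature cell types were also abundant in them, as given below. All 7 mice were adult females on a high-fat diet. Of these, 5 had vertical sleeve gastrectomy (VSG), in which most of the stomach is removed, and 2 had sham surgery. About a month later, after an overnight fast and a liquid meal, cells of the duodenum, jejunum and ileum were presorted to remove immune (CD45), endothelial (CD31), apoptotic and dead cells, and then sorted for GFP. From 6 of the mice (4 VSG, 2 sham) there was a duodenal and a jejunal library, and the ileum was represented by 2 VSG and 2 sham mice. Replicates are numbered by mouse, so that VSG replicate 2, for example, is 1 animal in whichever segment it appears, and no animal is in both surgery groups. All tests therefore measure the spread between mice.

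Dietary iron is reduced at the brush border of enterocytes by the ferrireductase Cybrd1 (duodenal cytochrome b) and enters the cell through the divalent metal transporter Slc11a2 (DMT1). Iron that is not needed at once is held in ferritin, a shell of heavy chains (Fth1) and light chains (Ftl1), and the rest leaves through ferroportin (Slc40a1) after oxidation by hephaestin (Heph). Crypt cells take up iron from the blood with the transferrin receptor (Tfrc), heme oxygenase (Hmox1) frees iron from heme, and Epas1 (HIF-2α) is the hypoxia-inducible factor known to raise transcription of Cybrd1, Slc11a2 and Slc40a1 in the duodenum. When iron is scarce, iron regulatory proteins bind a stem-loop in the messenger RNA, the iron-responsive element. In the 5′ untranslated region the binding blocks translation, and in the 3′ untranslated region of Tfrc it protects the RNA from decay.

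These elements are shown because they are the regulatory sequence that members of the group share and that their selection by name did not use. The letters CNNNNNCAGTGN (the bulged C, 5 bases of the upper stem, the loop CAGTGN) were searched on the transcribed strand in every annotated untranslated region of the members (GENCODE M21, GRCm38). They occurred in 7 of 9 members, and in Cybrd1 and Hmox1 they did not. The letters alone are common: 12.2% of all genes with a 5′ untranslated region and 35.9% of those with a 3′ untranslated region hold them. With the further condition that all 5 stem bases pair with the 5 bases after the loop (G with T allowed), the shares were 0.148% and 0.613%, and 4 members, Fth1, Ftl1, Slc40a1 and Tfrc, met it. The element of Slc11a2 paired at 4 of 5 bases and that of Epas1 at 3 of 5. The latter is shown because a 5′ element of Epas1 is known to bind iron regulatory proteins. Capitals mark the 12 letters of the search.
Fth1, 5′ untranslated region, chr19:9982732-9982761, plus strand: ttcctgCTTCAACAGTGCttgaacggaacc
Ftl1, 5′ untranslated region, chr7:45459778-45459807, minus strand: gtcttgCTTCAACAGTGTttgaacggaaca
Slc40a1, 5′ untranslated region, chr1:45925464-45925493, minus strand: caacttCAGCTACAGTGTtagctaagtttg
Epas1, 5′ untranslated region, chr17:86753768-86753797, plus strand: tacaatCCTCGGCAGTGTcctgagactgta
Slc11a2, 3′ untranslated region, chr15:100395152-100395181, minus strand: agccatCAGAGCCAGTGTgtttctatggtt
Tfrc, 3′ untranslated region, chr16:32631219-32631248, plus strand: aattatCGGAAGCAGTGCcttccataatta
Tfrc, 3′ untranslated region, chr16:32631598-32631627, plus strand: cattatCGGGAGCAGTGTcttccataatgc
Tfrc, 3′ untranslated region, chr16:32631663-32631692, plus strand: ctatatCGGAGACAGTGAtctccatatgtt
Tfrc, 3′ untranslated region, chr16:32631710-32631739, plus strand: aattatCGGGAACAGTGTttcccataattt
The elements of Fth1 and Ftl1 have the same 5 stem bases, whereas each of the 4 Tfrc elements has its own. A match is a description of letters, not of a bound site. Translation and RNA stability were not measured. Because counts are per gene, the Slc11a2 transcript that holds the element shown (1 of 6 annotated coding transcripts) was not separated from the others.

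The values are DESeq2-normalized counts that the authors made within each segment. Implied depth was 10.9 to 63.6 M reads per library. To set segments side by side, the 16 libraries were put on 1 scale by median-of-ratios factors over the 7291 genes above 0 in all of them (jointly scaled counts). Because the segments had been normalized separately, the comparison of segments is a description with no test. The jejunal library of VSG replicate 1 stood apart, with the ileal bile acid-binding protein gene Fabp6 at 196951 normalized counts against 15.8 to 313 in the other jejunal libraries. The jejunal library of sham replicate 1 also stood apart, with Lgr5 listed at 0 and the stem cell gene Olfm4 at 7345, against 18164 to 33820 in the other 5 jejunal libraries. The ileal library of sham replicate 1 likewise had Lgr5 at 0 and the lowest Olfm4 of the 4 ileal libraries, 795 against 2647 to 7641. Differences between duodenum and jejunum (except for Hmox1) and jejunal fold changes of the members are therefore given with and without the mice whose jejunal library stood apart. Differences between jejunum and ileum rest on 3 mice, among them sham replicate 1, and were not computed without it.

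**Figure D1:**
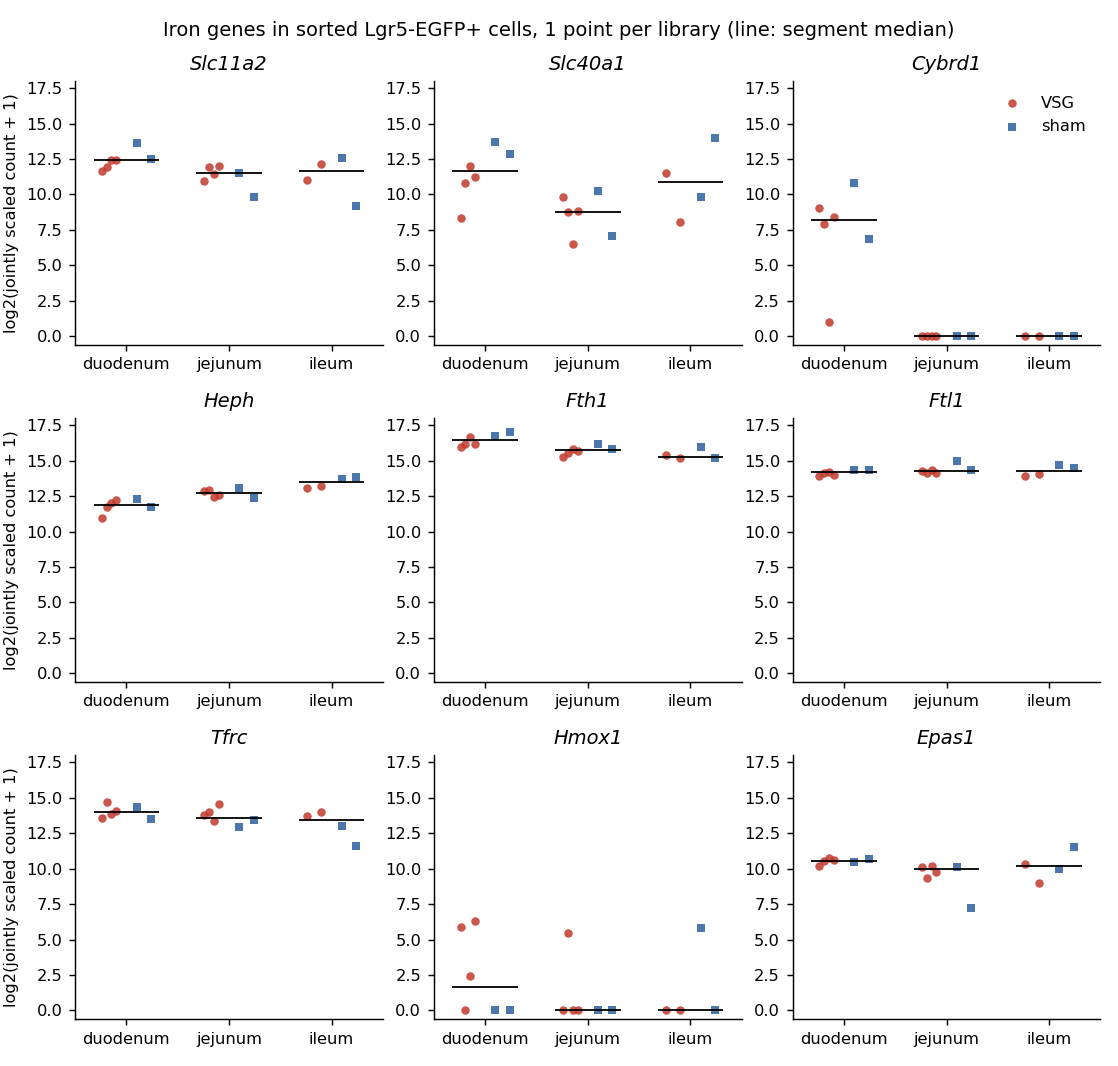
Level of each of the 9 genes by segment, as log2(jointly scaled count + 1), with 1 point per library (circles VSG, squares sham) and a line at the median of the segment. Cybrd1 lies above 0 in all 6 duodenal libraries and at 0 in all 10 others, Heph is stepwise higher from duodenum to ileum, and Hmox1 is at 0 in most libraries.

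The members differed in how they were distributed along the intestine. Cybrd1, Fth1 and Epas1 were higher in the duodenum than in the jejunum in all 6 mice (for Epas1 not with quantile normalization), Heph was lower in the duodenum in all 6, and Slc40a1 and Slc11a2 were higher in the duodenum in 5 of 6. The mean differences of Ftl1, Tfrc, Hmox1 and Epas1 were smaller in size than their SDs, and those of Slc11a2 and Slc40a1 were only slightly larger. The background for these counts is that 4.59% of 16040 genes were higher in the duodenum in every mouse and 3.56% were lower. The median of all genes was 0.20 on the log2 scale, duodenum minus jejunum, and the difference of each member above or below that median is given beside it.

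Cybrd1 (chromosome 2, 71117923 to 71142926, GRCm38), the reductase that prepares iron for uptake, was detected in the duodenum only. After VSG, replicates 1 to 4 had 530, 237, 1.01 and 336 jointly scaled counts, the sham mice had 1796 and 117, and the gene was listed at 0 in all 6 jejunal and all 4 ileal libraries. The duodenal level therefore covered a very wide range between mice, and VSG replicate 3 lay near the detection limit. The mean difference between duodenum and jejunum, 7.34 ± 3.37 (SD, 6 mice) on the log2(count + 1) scale, depends on the pseudocount because the jejunal value is 0. It was 7.14 above the median of all genes, and 6.04 without both mice whose jejunal library stood apart. Higher in every mouse with a mean difference above 1 were Cybrd1 and Epas1 among the members, against 1.92% of all genes.

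Slc40a1 (ferroportin; chromosome 1, 45908068 to 45926523) reached 13548 and 7275 jointly scaled counts in the duodenum of the sham mice, and 320, 1765, 4193 and 2377 in VSG replicates 1 to 4. Jejunal libraries of these mice had 919, 433, 90.1 and 447 after VSG and 1181 and 133 after sham surgery. The median was 7.46-fold higher in the duodenum, with overlap of the libraries. The mean difference was 2.95 ± 2.68 (SD, 6 mice), or 2.75 above the median of all genes, which placed it at percentile 96.7 of genes. VSG replicate 1, whose jejunal library carried Fabp6, was the exception at -1.52, and without it the mean was 3.85 (5 of 5 mice higher), or 3.93 without sham replicate 1 as well. The ileum did not continue the decline. Its 4 libraries lay at 2912 and 259 after VSG and 909 and 15974 after sham surgery, so that the highest library of all 16 was ileal.

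Slc11a2 (chromosome 15, 100387898 to 100425072), the iron importer, showed 3228, 3862, 5463 and 5530 jointly scaled counts in the duodenum of the VSG mice, against 12659 and 5889 in the sham mice. The jejunal levels were 1939, 3898, 2804 and 4144 after VSG and 2963 and 919 after sham surgery. The mean difference was 1.15 ± 1.03 (SD, 6 mice; 0.94 above the median of all genes), and 1.01 without both mice whose jejunal library stood apart. In VSG replicate 2 both segments were alike, at a difference of -0.013, and the other 5 mice were between 0.42 and 2.68. Libraries of neighbouring segments overlapped.

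Heph (chromosome X, 96455359 to 96574485), the ferroxidase of the exporting side, was lower in the duodenum than in the jejunum, unlike Slc40a1, Slc11a2 and Cybrd1. Duodenal libraries had 1975 to 5094 jointly scaled counts (median 3797), jejunal ones 5184 to 8694 (median 6744) and ileal ones 8822 to 14615 (median 11536). On this scale no library of one segment overlapped another segment, by narrow margins. The deposited values, normalized within each segment, did overlap, at 2744 to 7663, 5234 to 9552 and 5413 to 8752 from duodenum to ileum. The share of all genes without overlap between segments was not computed. Heph was lower in the duodenum than in the jejunum by a mean difference of -0.87 ± 0.59 (SD, 6 mice; -1.07 relative to the median of all genes) and lower in the jejunum than in the ileum by -0.88 ± 0.54 (SD, 3 of 3 mice), where 9.36% of 15819 genes were lower in every mouse. Without VSG replicate 1 the first difference was -0.66, and without both mice whose jejunal library stood apart it was -0.63. All 3 alternative scalings kept it negative, between -0.97 and -0.37 over the alternatives tried.

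The ferritin chains did not share a pattern. Fth1 (chromosome 19, 9980598 to 9985098) had 64652 to 132773 jointly scaled counts in duodenal libraries, 38539 to 72352 in jejunal and 37616 to 64983 in ileal ones. It was higher in the duodenum by 0.74 ± 0.24 (SD, 6 of 6 mice; 0.54 above the median of all genes), the least variable difference among the members and 0.77 without both mice whose jejunal library stood apart, and higher in the jejunum than in the ileum by 0.38 ± 0.26 (SD, 3 of 3 mice). For the second step the background was 16.7% of 15819 genes, whose median difference was 0.49, so relative to that median Fth1 was at -0.11. Ftl1 (chromosome 7, 45457944 to 45459884) had medians of 18430, 19868 and 19889 from duodenum to ileum, and its difference between duodenum and jejunum was -0.20 ± 0.25 (SD, 6 mice), or -0.41 relative to the median of all genes, and -0.057 without both of those mice. Its sign turned, to 0.29, when the deposited values were left unscaled. Both chains have many processed pseudogene copies, so reads may be shared among them. A row of the tables that also bears the name Fth1 is the pseudogene Fth-ps3 in GENCODE M21. It held 0.737 normalized counts in duodenal VSG replicate 3 and 0 elsewhere, and was not used.

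Epas1 (chromosome 17, 86753700 to 86833410) had 1195 to 1723 jointly scaled counts in the duodenum and 147 to 1184 in the jejunum. These did not overlap, by a narrow margin, and the share of all genes without overlap between segments was not computed. The Epas1 difference of 1.09 ± 1.23 (SD, 6 mice; 0.88 above the median of all genes) was carried in part by sham replicate 2 at 3.46, while the other 5 mice lay between 0.10 and 1.23. Without that mouse the mean was 0.61, and without both mice whose jejunal library stood apart it was 1.52. The ileal libraries, at 496 to 2905, overlapped both other segments. Tfrc (chromosome 16, 32608920 to 32632794) had medians of 16128, 12400 and 10812 from duodenum to ileum with overlapping libraries, and its difference between duodenum and jejunum was 0.33 ± 0.67 (SD, higher in 4 of 6 mice; 0.13 above the median of all genes), or 0.21 without both of those mice. Hmox1 (chromosome 8, 75093621 to 75100589) had a value of 0 in 3 of 6 duodenal, 5 of 6 jejunal and 3 of 4 ileal libraries, and its highest jointly scaled count was 80.0, so no order of segments can be read from it.

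**Figure D2:**
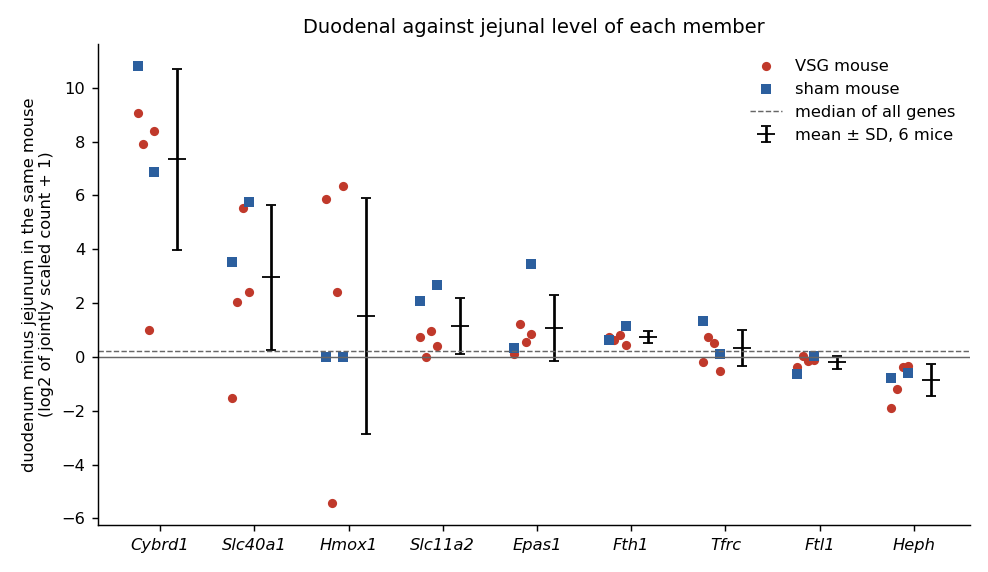
Difference between the duodenal and the jejunal level in the same mouse, in log2(jointly scaled count + 1), for each gene (circles VSG mice, squares sham mice, bar mean ± SD over 6 mice), with the dashed line at the median of all genes, 0.20. Cybrd1, Epas1 and Fth1 are above 0 in every mouse, Heph is below 0 in every mouse, and 1 VSG mouse is below 0 for Slc40a1.

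Compared per kilobase of the longest annotated coding transcript, Fth1 was the most abundant member in the duodenum, with a median of 59001 jointly scaled counts per kilobase, followed by Ftl1 at 19039 and Tfrc at 3298. Slc11a2 was at 1245, Slc40a1 at 975, Heph at 801, Epas1 at 277, Cybrd1 at 53.6 and Hmox1 at 1.37. In the jejunum Heph, at 1422, was above Slc11a2, at 653, and Slc40a1, at 131. The 6 stem cell markers summed to 51346 to 109384 jointly scaled counts in duodenal libraries, 12137 to 58296 in jejunal and 8515 to 30722 in ileal ones. Neighbouring segments thus overlapped. In the duodenum the 10 enterocyte markers, among them Alpi, Fabp1 and Sis, summed to more, 216909 to 668633. Duodenal sums on this scale were 61796 to 184780 for 6 goblet markers and 97822 to 187491 for 5 Paneth markers. Which of these cell types carries the member levels was not tested. Ferroportin is also made by macrophages. The 6 macrophage markers summed to 328 to 1766 normalized counts in the duodenum after VSG, with 1 or 2 of 6 listed at 0, and to 132 to 232 after sham surgery, with 2 or 3 of 6 at 0. Of this list Adgre1 was above 0 in 1 library (18.5 normalized counts in duodenal VSG replicate 4), as was C1qa (0.970 in duodenal VSG replicate 2). The sums therefore come almost wholly from the other markers of the list, Ptprc, Cd68, Csf1r and Lyz2. The part of macrophage RNA in the Slc40a1 values was not tested.

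Genes whose level followed a member most closely over the 16 libraries were sought among 12847 genes, as a description. For Cybrd1 they were Nkx6-3 (r = 0.89), Prss16 (r = 0.88) and Pdx1 (r = 0.85), the last a transcription factor of the duodenum and pancreas. All 3 had a median of 0 jointly scaled counts in the jejunum and in the ileum. For Slc40a1 they were Minpp1 (r = 0.83), Foxo1 (r = 0.82) and Ino80dos (r = 0.76). For Slc11a2 they were Pigr (r = 0.86), the transporter of secretory immunoglobulin, Hira (r = 0.82) and Gm43079 (r = 0.79). These points share mice and segments, and no test was made.

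The other genes of iron and heme handling were read in 5 lists of 58 genes. Of the list of iron sensing and ferritin turnover, 1 of 6 genes with enough signal was higher in the duodenum in every mouse. This was Ncoa4, which delivers ferritin for breakdown, at 0.53 ± 0.37 (SD, 6 mice). The most abundant genes of that list, the iron chaperones Pcbp2 and Pcbp1, differed by 0.16 ± 0.29 and 0.13 ± 0.23. Among 10 other transporters and reductases, Steap2, a metalloreductase (1.01 ± 0.72), and Slc39a14, a transporter of zinc, manganese and iron (0.48 ± 0.35), were higher in the duodenum in every mouse, and the mitochondrial iron importer Slc25a37 was lower (-0.75 ± 0.45). In the heme list, 3 of 15 genes were lower in the duodenum in every mouse, namely the heme exporter Flvcr1 (-2.0 ± 0.94), the heme and porphyrin exporter Abcg2 (-0.78 ± 0.63) and the biliverdin reductase Blvra (-0.39 ± 0.35), and none was higher. Alas1, which starts heme synthesis, differed by -0.40 ± 0.42. Of the 14 genes of the HIF pathway none was higher and 1 was lower in every mouse, the prolyl hydroxylase gene Egln3 (-1.93 ± 0.93), while Car9 differed by 0.52 ± 0.64 and Vegfa by -0.32 ± 0.75. Of the hepcidin and systemic list, 4 genes had signal and none was on one side in every mouse, and the most abundant, Trf (2.36 ± 3.50) and Hfe (-1.19 ± 2.74), had SDs larger than their mean differences. Genes of these lists that were not among the most abundant were named after their values were seen. The medians of the 5 lists were between -0.08 and 0.75, against 0.20 for all genes.

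VSG was compared with sham surgery within each segment to ask whether the iron genes of these cells changed with the operation. No member passed the threshold in any segment. A call needed a limma p under 0.05 that stayed under 0.2 after Benjamini-Hochberg adjustment, a log2 fold change beyond 0.5 in either direction, and a mean normalized count above 50. This called 0 of the 9 members that could be tested for the duodenum and 0 of 7 for each of the other segments, and limma without a variance trend also called none. Few genes of any kind were called by this test. They were 4 of 16867 duodenal genes (0.0237%), 2 of 15857 jejunal genes (0.0126%) and 0 of 13853 ileal genes (0%). The thresholds are those the study states, but its own DESeq2 analysis reported many more altered genes in each segment. The lack of calls therefore holds for the limma fit used here. At an unadjusted limma p under 0.05 there were 3 members in the duodenum (Slc40a1, Slc11a2 and Fth1), none in the jejunum and 1 in the ileum (Tfrc), where 6.27%, 6.04% and 3.28% of all genes passed. With 4 against 2 libraries the exact permutation test cannot go below p = 0.0667, and with 2 against 2 it cannot go below p = 0.333.

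In the duodenum 4 of 9 members, Slc40a1, Slc11a2, Fth1 and Ftl1, had every VSG library below both sham libraries, against 8.01% of all genes tested. None had every VSG library above both sham libraries, against 6.44%. The median log2 fold change of the members was -0.31, against 0.01 over all genes tested. For Slc40a1 the VSG libraries had 444, 2574, 6128 and 3530 normalized counts, and the sham libraries had 20382 and 10557. The VSG libraries were thus all below the lower sham library, and their own range was wide. The log2 fold change was -2.72 (SE 0.85, 95% interval -4.63 to -0.80, limma adjusted p = 0.560, exact permutation p = 0.133), and it lay between -3.78 and -1.94 over the alternatives tried, with adjusted p between 0.354 and 0.880.

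Duodenal Slc11a2 was at 4485, 5631, 7984 and 8213 normalized counts after VSG, against 19045 and 8546 after sham surgery. The highest VSG library came close to the lower sham library. The log2 fold change was -1.0 (SE 0.36, 95% interval -1.82 to -0.18, limma adjusted p = 0.658, exact permutation p = 0.133), and without sham replicate 1 it was -0.42. Fth1 had 89830, 107923, 149483 and 109021 after VSG and 166402 and 192670 after sham surgery, with a log2 fold change of -0.68 (SE 0.29, limma adjusted p = 0.777, exact permutation p = 0.0667, the smallest the design allows). Ftl1, at 21085 to 27729 against 29873 and 31245, had a log2 fold change of -0.31 (SE 0.21, limma adjusted p = 0.880).

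The remaining duodenal members overlapped between the groups. Cybrd1 had a log2 fold change of -2.35 with a 95% interval from -7.25 to 2.55, so its change was not measurable with these mice. Heph was at -0.31 (SE 0.38) and Tfrc at 0.11 (SE 0.36). Epas1 was at -0.06 (SE 0.28, 95% interval -0.69 to 0.57). Hmox1 had 79.8, 0, 6.29 and 119 normalized counts after VSG and was listed at 0 in both sham libraries, so no fold is given.

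**Figure D3:**
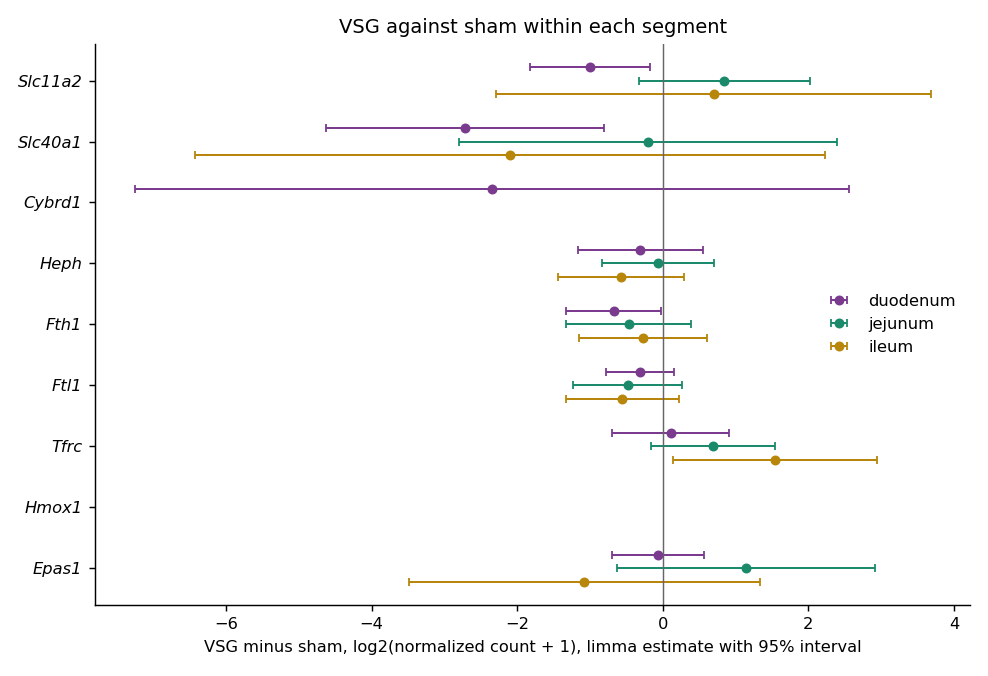
Log2 fold change of VSG against sham for each gene and segment, as the limma estimate on log2(normalized count + 1) with its 95% interval. In the duodenum the intervals of Slc40a1, Slc11a2 and Fth1 lie below 0, in the ileum that of Tfrc lies above 0, none passed adjustment over all genes, Cybrd1 has a duodenal value only, and Hmox1 is not drawn because it was at 0 in both duodenal sham libraries and too low for the test elsewhere.

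Markers of mature enterocytes had the same sign as Slc40a1 and Slc11a2 in the duodenum. All 10 had a negative log2 fold change (median -1.33), 8 of 10 had every VSG library below both sham libraries, and their summed normalized count was 301383 to 585490 after VSG and 698817 to 1005940 after sham surgery. The 6 stem cell markers had a median of 0.13. In sorted bulk cells a smaller share of cells of a type cannot be told apart from less RNA per cell. When each member was divided by the summed enterocyte markers of its library, an alternative chosen after the data were seen, Slc11a2 was at 11.6 to 23.6 counts per 1000 enterocyte marker counts after VSG and 12.2 to 18.9 after sham surgery, a log2 difference of 0.01 (exact permutation p = 1). Slc40a1 libraries of the 2 groups still did not overlap, at 1.47 to 10.5 after VSG against 15.1 to 20.3 after sham surgery, a log2 difference of -1.71 (exact permutation p = 0.133). Ftl1 (0.70), Heph (0.70), Epas1 (0.95) and Tfrc (1.12) did not overlap either, in the other direction, with every VSG library above both sham libraries. Fth1 (0.34) was positive with overlap, and exact permutation p of these genes was between 0.0667 and 0.333. Cybrd1 was at -1.52 with overlap (exact permutation p = 0.8). Because every gene is divided by the same sums, which were lower in every VSG library, all members move up together on that scale. The share of all genes without overlap there was not computed, so the lack of overlap is not a result about the members. Whether enterocyte RNA sets the duodenal differences was not tested beyond this ratio.

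**Figure D4:**
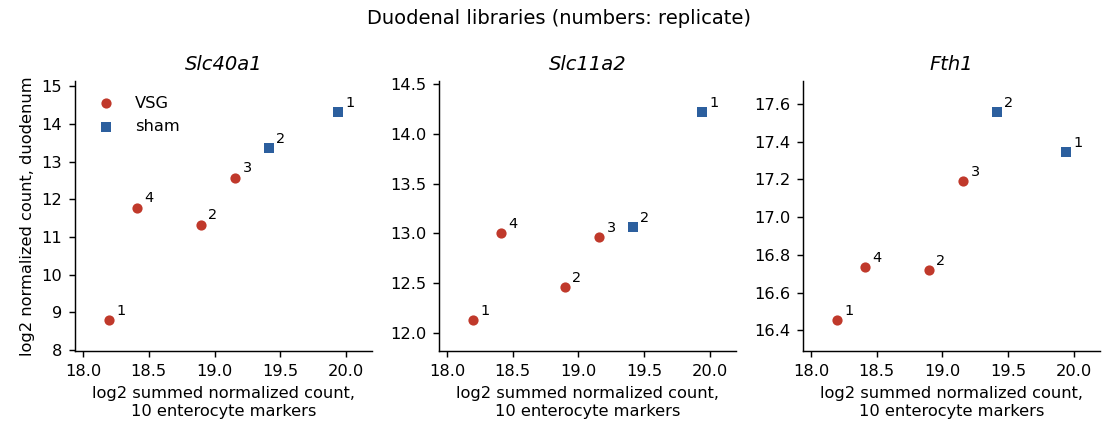
Log2 normalized count of Slc40a1, Slc11a2 and Fth1 in the 6 duodenal libraries against the log2 summed normalized count of 10 enterocyte markers (circles VSG, squares sham, numbers the replicate). Both sham libraries lie at the highest enterocyte sums, and VSG replicate 1 has the lowest sum and the lowest level of all 3 genes.

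In the jejunum Fth1 alone had every VSG library on one side of the sham libraries, at 39711 to 58945 normalized counts against 60011 and 79494, a log2 fold change of -0.47 (SE 0.38, limma adjusted p = 0.798). That is 1 of 7 members below, against 6.21% of all genes, and none above, against 6.59%. Without sham replicate 1 the Fth1 value was -0.27, and without VSG replicate 1 it was -0.36. Ftl1 was at -0.48 (SE 0.34), and its size depended on which sham mouse was kept. It was called without sham replicate 2 (-0.88, limma adjusted p = 0.0808), a fit that keeps sham replicate 1, whose library stood apart, as the lone sham and assumes that it varies like the VSG libraries. Without sham replicate 1 it was at -0.087 (limma adjusted p = 0.947), and without VSG replicate 1 at -0.50. Slc11a2 was at 0.85 (SE 0.53), with 1998, 3995, 2830 and 4233 normalized counts after VSG and 3256 and 927 after sham surgery. Its value was 1.75 without sham replicate 1, -0.058 without sham replicate 2 and 1.06 without VSG replicate 1. Tfrc was at 0.69 (SE 0.38, limma adjusted p = 0.760), and at 0.53 and 0.74 without sham replicate 1 and without VSG replicate 1. Slc40a1, at -0.20 (SE 1.17), and Epas1, at 1.14 (SE 0.80), had 95% intervals wider than 3 log2 units. Leaving out sham replicate 1 moved them to 1.43 and 2.66, and leaving out VSG replicate 1 to -0.66 and 1.05. Heph, at -0.063 (SE 0.35), moved to 0.37 and -0.11. All 10 enterocyte markers had a negative log2 fold change here too (median -1.70), 4 of them without overlap, and they summed to 302856 to 819249 after VSG and 702646 and 1974810 after sham surgery. Per 1000 enterocyte marker counts, Slc11a2 was at 4.88 to 8.68 after VSG against 1.32 and 1.65 after sham surgery, a log2 difference of 2.09 (exact permutation p = 0.0667). All 7 members were positive on this scale, from Ftl1 (0.76) and Fth1 (0.77) through Slc40a1 (1.04), Heph (1.18) and Tfrc (1.93) to Epas1 (2.39, exact permutation p = 0.0667). Every gene of a library is divided by the same sum, so all members moved up together, Heph from -0.063 and Slc40a1 from -0.20. The shared sign therefore comes with the division and is not a result about the members. The share of all genes positive on this scale was not computed.

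In the ileum Tfrc had 8178 and 9909 normalized counts after VSG and 4982 and 1902 after sham surgery. The log2 fold change was 1.55 (SE 0.56, 95% interval 0.15 to 2.95, limma adjusted p = 0.736, exact permutation p = 0.333). It was 0.85 without sham replicate 2 and 2.24 without sham replicate 1, whose ileal library had Lgr5 at 0. Tfrc was the 1 of 7 members with both VSG libraries above both sham libraries, against 17% of all genes. Heph (-0.57, SE 0.35) and Ftl1 (-0.55, SE 0.31) had both VSG libraries below both sham libraries, 2 of 7 against 11.6%. All 4 markers of ileal enterocytes likewise had both VSG libraries below both sham libraries (median log2 fold change -1.44). They summed to 43738 and 89360 normalized counts against 175501 and 244959. The 10 enterocyte markers used for the other segments did not follow them. Of these, 4 had a negative log2 fold change (median 0.03) and 1 had both VSG libraries below both sham libraries. Their sums were 184289 and 429790 after VSG and 356804 and 380503 after sham surgery. The part of either list in the Heph and Ftl1 values was not tested. Slc40a1 ranged from 158 to 1786 after VSG and from 546 to 9566 after sham surgery, so its 95% interval reached from -6.43 to 2.22. The stem cell markers summed to 11485 and 18848 after VSG and 5116 and 8954 after sham surgery, and the part of this difference in the Tfrc values was not tested.

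Whether the response to VSG differed between duodenum and jejunum was tested on the jejunal minus duodenal value of each mouse. None of 7 members passed, where 0 of 14718 genes (0%) were called and 4.1% had an unadjusted limma p under 0.05. Slc11a2 had the smallest unadjusted p among the members. On the joint scale its duodenum minus jejunum difference was 2.09 and 2.68 in the sham mice, against 0.74, -0.013, 0.96 and 0.42 in the VSG mice, so that no VSG mouse reached either sham mouse. The share of all genes that separate the mice in this way was not computed. On the deposited values, which the test used, the difference of the VSG effect was 1.85 (SE 0.40, 95% interval 0.94 to 2.76), with an unadjusted limma p of 0.00145, an adjusted p of 0.948 and an exact permutation p of 0.0667, the smallest the design allows. It lay between 1.52 and 2.17 over the alternatives tried, with adjusted p from 0.247 upward. For Slc40a1 the difference was 2.51 (SE 1.66) and for Epas1 1.20 (SE 0.87), with ranges of 1.28 to 3.67 and of -0.39 to 2.80 over the alternatives, and for Fth1, Ftl1, Heph and Tfrc it was between -0.17 and 0.58.

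None of the 58 further genes of iron sensing, transport, heme and HIF was called in any segment. Before adjustment, limma p was under 0.05 for 3 of 51 tested in duodenal, 4 of 48 in jejunal and 2 of 46 in ileal libraries, against 6.27%, 6.04% and 3.28% of all genes. These genes are named after their values were seen. In the duodenum the medians of the 5 lists were between -0.44 (HIF pathway, 11 of 14 genes negative, against 49.3% of all genes) and -0.10 (iron sensing), against 0.01 over all genes. The 3 duodenal genes were Aco1, an iron regulatory protein (-0.76, SE 0.32), Flvcr1 (-2.60, SE 0.89) and Egln3 (-1.62, SE 0.63), with limma adjusted p between 0.612 and 0.764. The jejunal genes were the metal transporter Slc39a8 (1.83, SE 0.79), Slc25a37 (-0.75, SE 0.32), the folate and heme carrier Slc46a1 (-2.09, SE 0.84) and Flvcr1 (-1.55, SE 0.60), each with limma adjusted p = 0.760. The ileal genes were the kinase Pdk1, at 3.23 (SE 1.07), and Slc46a1, for which no fold is given because 1 sham library is at 0, both with limma adjusted p = 0.736.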

How the data were processed

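RNA-Seq of polyA RNA (NEBNext Ultra II Directional kit) from sorted GFP+ cells gave 16 libraries. Per the labels and the study's methods, reads were aligned by the authors with STAR 2.5.3a (mm10) and transcripts quantified with Salmon 0.6.0, followed by DESeq2 normalization within each segment. Libraries with few mapped reads had been left out. The authors deposited 1 signal value (a normalized count) per gene and library. Of the values, 37.8% to 49.0% per library are whole reads (tolerance 0.01) under 1 factor, so no count model was used. The deposited tables of the authors' own comparisons (log2 fold changes, p-values) were not used.

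The 9 members, the lists and the tests were chosen with earlier results of these data known. Each segment was tested with limma 3.58.1 (R 4.3.3) with a variance trend, on genes whose mean exceeded 10 and values transformed as log2(normalized count + 1). A fold change on this scale understates that of low genes. The steps were run on simulated data with large changes and a fixed spread, which does not measure the power to find changes of the members. Single values have two-sided exact permutation tests over 15 splits (4 against 2) or 6 splits (2 against 2). Segments were compared without a test after joint scaling, which brings deposited values of separate normalizations to 1 scale. The genes named are the members, the 2 most abundant and any called gene of each list, the 3 genes most correlated with Slc11a2, Slc40a1 and Cybrd1, and markers. Further list genes were named after their values were seen, where they lay on one side in every mouse or had an unadjusted p under 0.05. Positions and untranslated regions come from GENCODE M21, which matched 48058 of 48440 identifiers. The alternatives tried changed the pseudocount (0.5 or 10), the filter, the normalization (quantile, equal library totals, for segments also none), the variance trend, the adjusted p (0.05), the model (a replicate block) or the libraries (each left out once). Ratios to enterocyte markers, and leaving out both mice with an atypical jejunal library, were added after the data were seen. Other software was Python 3.11.15 (scipy 1.17.1, pandas 2.3.3, numpy 2.4.6, matplotlib 3.10.9). A single read is worth 0.586 to 2.07 normalized counts, depending on the library, and this sets what a listed 0 can mean.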

Additional observations from a re-analysis of the deposited data

Results flagged for a closer look

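Of 26 groups examined for a value far from the others, 2 were flagged, where chance flags about 1 in 20 groups. Among the 4 jejunal VSG libraries Hmox1 was at 43.1 normalized counts in replicate 2 and listed at 0 in the other libraries, which is a single library with a low signal. For Epas1 the duodenum minus jejunum difference of sham replicate 2, 3.46 on the log2 scale, lay apart from those of the other 5 mice, with a jejunal count in that mouse of 149 normalized counts. The gap was 0.665 of the whole range.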

How the results depend on the processing

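With 2 sham mice, and 2 libraries a group in the ileum, few differences can pass adjustment, values of 0 are not counts, and segments were normalized separately. No member was called in the duodenum, the ileum or the difference between segments under any alternative run. In the jejunum the count called was 0 to 1 when libraries were left out, the 1 being Ftl1 without sham replicate 2. Members higher in the duodenum than in the jejunum in every mouse numbered 5 with unscaled deposited values (Slc11a2 and Tfrc added, with the median of all genes at 0.69) and 3 or 4 otherwise. It was 4 with equal totals or without VSG replicate 2 (Slc11a2 added), and without VSG replicate 1 or without both mice whose jejunal library stood apart (Slc40a1 added), and with quantile normalization Slc11a2 took the place of Epas1. Higher in the jejunum than in the ileum in every mouse were 2 members (Fth1 and Ftl1) with equal totals and Fth1 otherwise.

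Signs that turned belong to fold changes that were not called, and the cause was not tested. With equal totals Epas1 in the duodenum was 0.021, and in the jejunum Slc40a1 was 0.025 and Heph 0.17. With quantile normalization jejunal Heph was 0.10. With the replicate block jejunal Slc40a1 was 0.63 and Heph 0.14. The block changed no other sign and no call. Same-numbered VSG and sham libraries share only a number, with correlations of their deviations of -0.049 and -0.026 (duodenum) and of 0.054 and 0.0099 (jejunum), and ileal VSG and sham libraries share no number. Per enterocyte marker count, chosen after the data were seen, the duodenal value was 0.011 for Slc11a2, 0.70 for Heph, 0.34 for Fth1, 0.70 for Ftl1 and 0.95 for Epas1, the jejunal value was 1.04 for Slc40a1, 1.18 for Heph, 0.77 for Fth1 and 0.76 for Ftl1, and ileal Fth1 was 0.12. On that scale all members of a segment move up together, because they are divided by the same sums.

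Leaving out 1 library at a time, duodenal fold changes ranged from -0.63 to 0.013 for Heph, -0.32 to 0.54 for Tfrc and -0.14 to 0.063 for Epas1. Jejunal ones ranged from -0.058 to 1.75 for Slc11a2, -1.83 to 1.43 for Slc40a1, -0.50 to 0.37 for Heph and -0.37 to 2.66 for Epas1. Ileal ones ranged from -0.98 to 2.37 for Slc11a2 and -0.67 to 0.12 for Fth1. The difference of the VSG effect, jejunum minus duodenum, ranged from -0.091 to 0.46 for Heph, -0.10 to 0.52 for Fth1, -0.53 to 0.19 for Ftl1, -0.0062 to 1.16 for Tfrc and -0.39 to 2.80 for Epas1. In the fits that leave 1 sham mouse, that mouse is assumed to vary like the VSG mice.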
